A study of Mus musculus with 24 samples.

Results

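To ask whether nerve injury leaves a change in the anterior cingulate cortex (ACC) that both sexes share, the 2 count tables of this region, 1 from females and 1 from males, were analysed together. All libraries of both tables were taken, which makes 12 of the 24 libraries in the series, and the table entered the model as a block. All groups were C57BL/6 mice aged 3 months: 3 libraries came from sham-operated females, 3 from females with spared nerve injury (SNI), 3 from sham-operated males and 3 from males with SNI. SNI is a model of neuropathic pain in which branches of the sciatic nerve are cut while another is left intact, and tissue was taken 2 weeks after surgery. Several animals were pooled for every library, and variation among single mice is thus partly averaged out. Sex and table coincide and cannot be told apart.

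The ACC is a medial frontal area in which nociceptive input is given its affective weight, and it is a site of long-lasting plasticity in models of chronic pain. Its layer 6 pyramidal neurons project back to the thalamus, its parvalbumin-positive interneurons fire fast and pace the pyramidal cells, and its surface is covered by the meninges, whose fibroblasts make collagens. Astrocytes and microglia respond to injury of the nervous system by changing the expression of intermediate filaments and complement factors. Tissue was punched out, so a bulk library holds RNA of every cell in the punch, and fewer cells of a type cannot be told apart from less RNA per cell.

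The libraries held 24714332 to 30391957 counts. The cortical labels were met by the markers: Slc17a7, the vesicular glutamate transporter of cortical excitatory neurons, was at 1436 to 1858 CPM (the count of a gene scaled to the library's TMM-adjusted total, as CPM) in the 12 libraries, while Drd1, a dopamine receptor abundant in the striatum, was at 6.23 to 8.48 CPM. Some libraries stood apart. In female sham 1 the 15 choroid plexus markers summed to 1109 CPM, of which 867 CPM were Ttr, against 13.6 to 23.2 CPM in the other libraries. Alb, the serum protein of the liver, was at 25.4 CPM in male SNI 1, at 7.03 CPM in male sham 1, at 2.03 CPM in male sham 2 and at or under 0.0742 CPM elsewhere. In male sham 3, male SNI 1 and male SNI 2, genes rich in GC had high counts relative to genes poor in GC, with a trend of 0.437, 0.418 and 0.362 on the log2 scale against -0.286 to 0.0821 in the rest.

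No gene was called as a common SNI effect. Of 17289 genes tested with edgeR's quasi-likelihood test, 0 passed an FDR of 0.1, which is 0% of those tested, and the smallest FDR was 0.814. Under an unadjusted p of 0.05, which is called nominal below and is no call, there were 961 genes, or 5.56%, of which 457 (2.64%) were higher and 504 (2.92%) lower after SNI. DESeq2 called 0 genes as well, with 838 nominal genes. The precision was highest for abundant genes: the median standard error of the log2 fold change was 0.05 for 9901 genes with a mean over 10 CPM, 0.12 for 4770 genes of 1 to 10 CPM and 0.28 for 2618 genes under 1 CPM. The median log2 fold change of all genes tested was -0.00015.

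The direction of the SNI effect was shared by the tables for 8472 of the 17289 genes, or 49.0%. In 46 genes every SNI library lay above every sham library of its own table, in the females and in the males, and in 35 genes every SNI library lay below. These are 0.266% and 0.202% of the genes tested. Another 87 genes were separated in both tables but in opposite directions. Within a single table separation was common: of the same 17289 genes, 957 were above and 1031 below in the females, and 818 above and 603 below in the males. With so few libraries per group such separation also arises without an effect of SNI. Whether the 46, 35 and 87 genes exceed what arises that way was not tested. Of the 81 genes separated the same way, 68 were protein coding, and their log2 fold changes had a median size of 0.16. The plot of the male against the female fold changes shows these genes in the corners where the signs match, among the cloud of all genes. No slope or correlation of that cloud was computed.

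**Figure D1:**
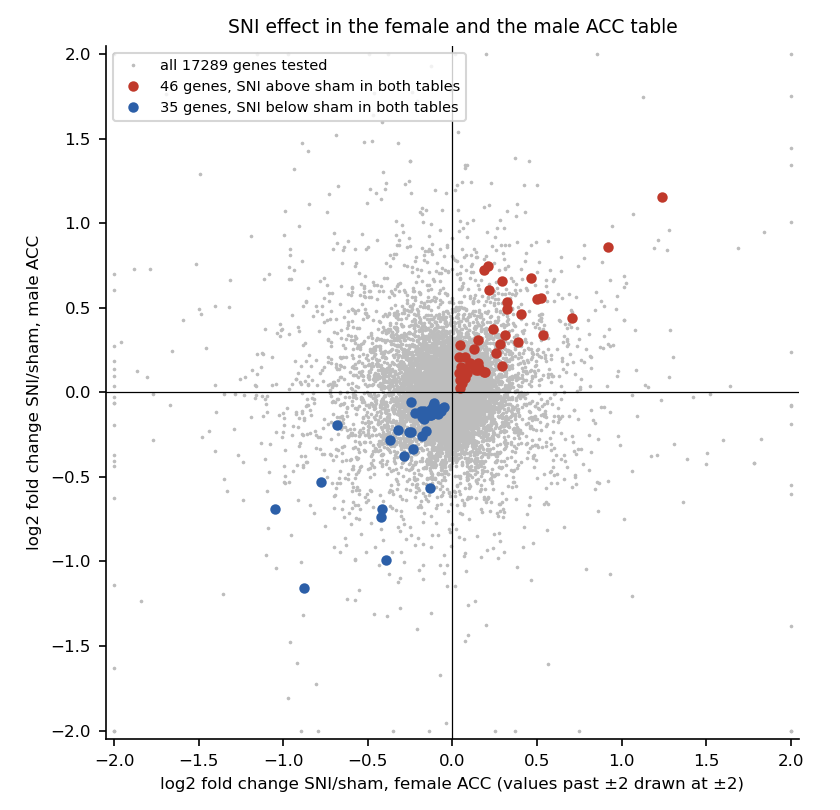
Log2 fold change of SNI over sham in the female ACC (horizontal axis) and in the male ACC (vertical axis) for the 17289 genes tested, in grey, with values past 2 drawn at the edge. The 46 genes whose SNI libraries lay above sham in both tables (red) and the 35 below (blue) were picked by that separation, so their place in the matching corners follows from the choice, and 49.0% of all genes had the same sign in both tables.

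Among the separated genes with the smallest p in the higher direction was Rimkla, a ligase that makes the neuronal dipeptide N-acetylaspartylglutamate (chr4:119465283-119492628, GRCm38, minus strand), measured on 192 to 280 reads. Its level was 7.58, 7.84 and 8.19 CPM (lowest, median and highest of 6 libraries) in sham and 9.10, 9.35 and 10.4 CPM after SNI. The common log2 fold change was 0.28 ± 0.06 (SE, edgeR adjusted p = 0.814). The gap between the groups was small but was about the same in females and males, 0.28 in each. Zmynd12 overlaps Rimkla on the opposite strand, and how the counting treated strand is not given in the sources used here, so reads of the pair cannot be told apart.

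Cwh43, a gene of GPI-anchor remodelling (chr5:73406075-73453435, plus strand), was at 1.60 ± 0.122 CPM (SD, n = 3) in sham females and 2.63 ± 0.537 in SNI females. In males it was at 1.67 ± 0.0964 CPM in sham and 2.27 ± 0.154 CPM after SNI. The common difference was 0.58 ± 0.13 (log2, SE). Prss35, a secreted protein of the serine protease family, was at 2.48, 2.67 and 3.16 CPM in sham and 3.20, 3.80 and 5.26 CPM after SNI. Its common log2 fold change was 0.53 ± 0.13. Another 6 genes of this direction were Adamtsl5 (0.31), a secreted matrix protein, Vangl2 (0.22), a membrane component of planar cell polarity, Sebox (0.44), a homeobox gene, Gm11762 (0.43), a processed transcript, Rhof (0.14), a small GTPase that drives filopodia, and Grid2ip (0.43), a postsynaptic scaffold of the delta-type glutamate receptor. In these 6 genes the edgeR adjusted p of the difference between females and males was 0.764 to 0.959, and that of the common effect 0.814. The genes were picked for lying on the same side in both tables, so the former cannot show that a change is shared.

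Another 3 genes of this set are named after their values were seen, because they act in neurons. Ephb2, an ephrin receptor at excitatory synapses, was at 23.01 to 27.8 CPM in sham and 25.6 to 28.6 CPM in SNI libraries, and differed by 0.15 (log2). Its relative Ephb1 differed by 0.10, from 43.5 to 49.0 CPM in sham and 46.5 to 56.3 CPM after SNI. Dlx2, a homeobox factor of interneurons, was at 4.41 to 5.47 CPM in sham and 5.17 to 6.23 CPM in SNI libraries, and differed by 0.25. Over the 6 libraries of each surgery the ranges of all 3 genes overlap, while within each table the groups are apart.

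Among the lower genes Cdo1 came first, the enzyme that oxidises cysteine to cysteine sulfinate and so sets the cysteine pool of the cell (chr18:46713193-46728395, minus strand). Its level was 15.3, 16.4 and 18.4 CPM (lowest, median and highest) in sham and 12.5, 14.4 and 15.1 CPM after SNI, with no overlap even across the tables. The log2 fold change was -0.24 ± 0.05 (SE, edgeR adjusted p = 0.814), with -0.25 in females and -0.23 in males. Gm16867 (chr14:69363504-69503362, minus strand) was at 28.2, 30.6 and 32.9 CPM in sham and 19.5, 24.9 and 27.8 CPM after SNI. This gene overlaps Entpd4 on the opposite strand, so the assignment of its reads is uncertain. Its difference was -0.35 ± 0.07 in common, -0.13 in females and -0.57 in males, and the adjusted p of the difference between the tables was 0.753.

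Cp, the ferroxidase ceruloplasmin made by astrocytes and by cells of the meninges and choroid plexus (chr3:19957054-20009145, plus strand), was at 19.1 ± 1.28 CPM (SD, n = 3) in sham females and 15.35 ± 2.18 CPM after SNI. In males it was at 17.2 ± 1.165 and 14.7 ± 0.776 CPM. Cp differed by -0.27 ± 0.07 in common (log2, SE). Cdcp1, a transmembrane substrate of Src kinases, rested on 14 to 29 reads in sham and 7 to 14 after SNI, with a difference of -1.02 ± 0.26. The other lower genes by the same rule were Sgk3 (-0.28), a kinase of the AKT family, Gm9747 (-0.53), which lies opposite Irs1, Nynrin (-0.24), Mcee (-0.22), a mitochondrial epimerase of propionate metabolism, Gm42463 (-0.88), which lies inside Tdrkh, and Grpel2 (-0.16), a cochaperone of mitochondrial import. Each of the 20 genes picked by this rule kept its sign under every alternative processing run, which separation in both tables largely fixes in advance. The plot of the leading genes by library shows the 3 SNI points of each table clear of the 3 sham points, which is how the genes were picked.

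**Figure D2:**
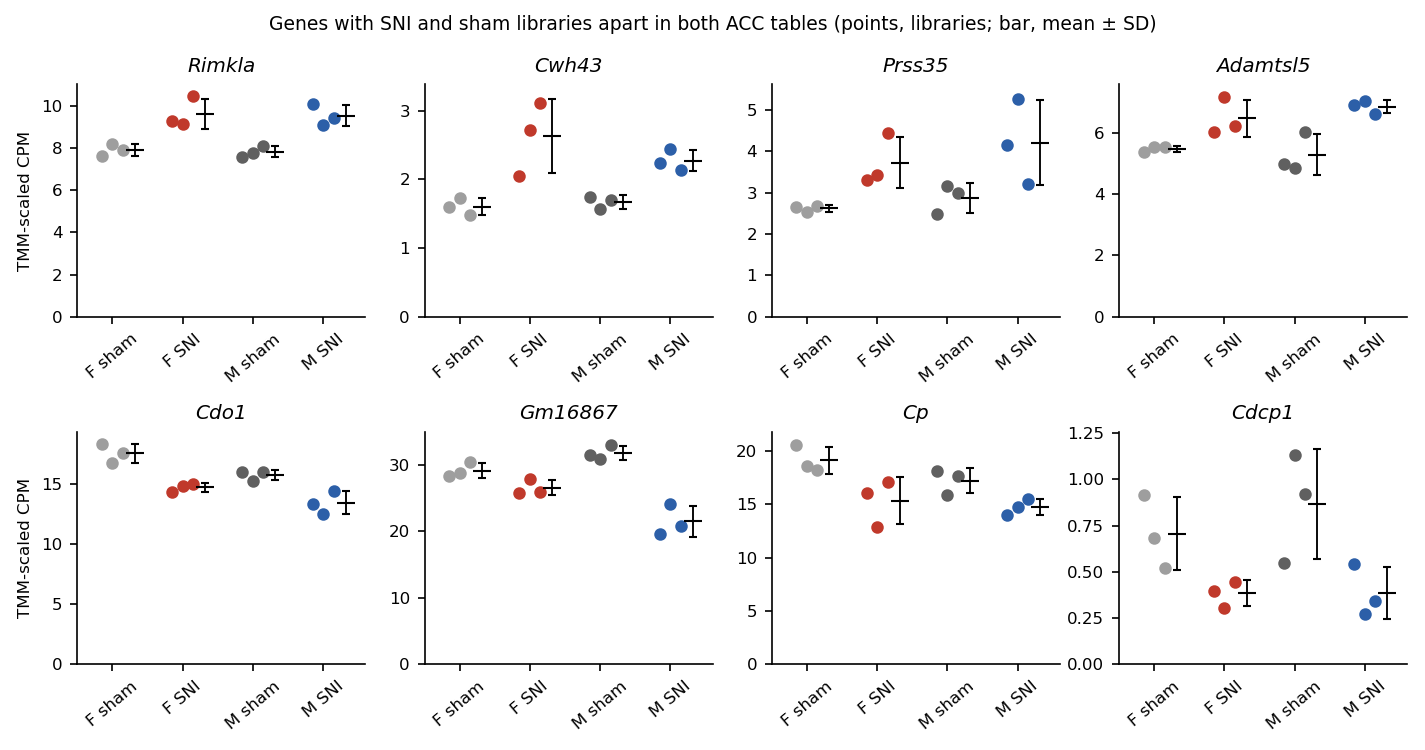
TMM-scaled CPM of 4 higher genes (top row) and 4 lower genes (bottom row) among those with the smallest p that were separated in both tables. Each point is a library (F, female; M, male; 3 per group), the bar beside it is the mean with the SD, and all axes start at 0; Rimkla lies between 7.58 and 8.19 CPM in sham and between 9.10 and 10.4 CPM after SNI, and Cdo1 between 15.3 and 18.4 CPM in sham and between 12.5 and 15.1 CPM after SNI.

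Some genes with a p as small did not separate in both tables, and are named after their values were seen. Slc7a11, the cystine/glutamate exchanger of astrocytes, was at 77.1 to 84.3 CPM in sham females and 57.6 to 66.3 CPM in SNI females. In males sham libraries lay at 65.6 to 74.5 CPM and SNI libraries at 54.7 to 67.3 CPM. The common difference of Slc7a11 was -0.27 ± 0.06 (SE, adjusted p = 0.814), with -0.38 in females and -0.15 in males. The male groups of Slc7a11 overlap. Ighm, the immunoglobulin heavy constant mu gene, was at 10.5 to 17.1 CPM in sham and 13.5 to 26.1 CPM after SNI, a difference of 0.59 ± 0.14, and male SNI 3 at 13.5 CPM lay within the sham range. Krt80, an epithelial keratin, differed by 0.60 and Bdh2, a cytosolic hydroxybutyrate dehydrogenase, by -0.95. Gm27998, which lies within the long noncoding gene Miat, had 0 to 3 reads in sham and 0 to 16 in SNI libraries, with a fitted log2 fold change of 3.33 that depends on such low counts.

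Layer 6 neurons had the highest median of the neuronal groups. Of their 12 markers, 9 were on the higher and 3 on the lower side in SNI libraries. The median difference was 0.15, and 5 genes were nominal, all higher, against 2.64% of all genes. The list holds Syt6, which the study had named from these samples, so the count is not independent of these data. With a library left out the median was 0.11 to 0.20, and the nominal genes numbered 3 without female sham 2, female SNI 3, male sham 1, male SNI 1 or male SNI 2. Without the 3 male libraries of steep GC trend the layer 6 median was 0.0998. This alternative was chosen after seeing the data and leaves male SNI 3 as the only male SNI library. Syt6, a synaptotagmin of layer 6 neurons, was at 12.6 to 16.1 CPM in sham females and 18.6 to 23.6 CPM in SNI females. In males its sham libraries ranged from 16.2 to 22.9 CPM and its SNI libraries from 19.03 to 24.6 CPM. Syt6 was thus apart in the female table and overlapping in the male table, with a common difference of 0.41 ± 0.10 (SE, edgeR adjusted p = 0.814). Foxp2, a transcription factor of layer 6, differed by 0.22, Tle4 by 0.08 and the neurotensin receptor Ntsr1 by -0.03. Of the other members, Rprm (0.31), Nxph4 (0.53), Nxph3 (0.16) and Sla (0.23) were nominal and are named for that reason. The summed level of the 12 genes overlapped between sham and SNI in both tables, at 229.6 to 291.2 CPM in sham and 245.4 to 315.8 CPM after SNI.

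All 15 genes of fast-spiking and large-axon neurons were higher after SNI in the common fit, with a median of 0.11. Of these 15, 5 were nominal and higher, against 2.64% of all genes. The list holds Scn4b and Syt2, which the study had named from these samples. The median was 0.17 in females and 0.01 in males, and 8 of 15 genes had the same sign in both tables. Scn4b, the sodium channel subunit that supports resurgent current, was at 63.7 to 83.4 CPM in sham females and 88.2 to 107.3 CPM in SNI females, without overlap. In males it was at 86.5 to 90.1 CPM in sham and 84.3 to 99.9 CPM after SNI, and the common difference was 0.25 ± 0.08. Syt2, the fast calcium sensor of these terminals, differed by 0.19, Pvalb, their calcium buffer, by 0.05 and Kcnc1, their potassium channel, by 0.11. Without the 3 male libraries of steep GC trend, which leaves male SNI 3 as the only male SNI library, the median of the list was 0.18. With each library corrected for GC content the median was 0.0753 and 3 genes were nominal. With 1 library left out the median was 0.09 to 0.16. The nominal genes then numbered 2 without female sham 1, female sham 3, female SNI 1, male sham 1 or male SNI 1, 3 without female SNI 2 or male sham 2, and 10 without male SNI 2.

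Of 29 synaptic vesicle release genes, 23 were higher and 6 lower, with a median of 0.06. Of the 29, 6 were nominal, all higher, against 2.64% of all genes. Syt2 and Syt6 in this list had been named by the study from these samples. The nominal genes numbered 2 without male SNI 1, 3 without female SNI 1 or male sham 1, and 10 without male sham 3. The median was 0.03 without male sham 1, and 0.03 without the 3 libraries of steep GC trend. Syt1 (-0.01), Syt2 (0.19), Syt3 (0.13) and Syt4 (-0.11), calcium sensors of release, did not share a direction. Among 24 ionotropic glutamate receptors and scaffolds the median was 0.03, and Gria1, Gria2, Gria3 and Gria4, the subunits of AMPA receptors, lay between -0.07 and 0.00. In 27 sodium, calcium and HCN channel genes the median was 0.04, with Scn1a, Scn2a, Scn3a and Scn8a between -0.05 and 0.07. The 29 voltage-gated potassium channel genes had a median of 0.02, with Kcna1, Kcna2, Kcna3 and Kcna4 between -0.08 and 0.10. In 21 genes of GABA synthesis, transport and reception the median was -0.01, and Gad1, Gad2 and Slc32a1 lay between -0.04 and 0.12. The plot of list medians sets these groups beside the others.

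**Figure D3:**
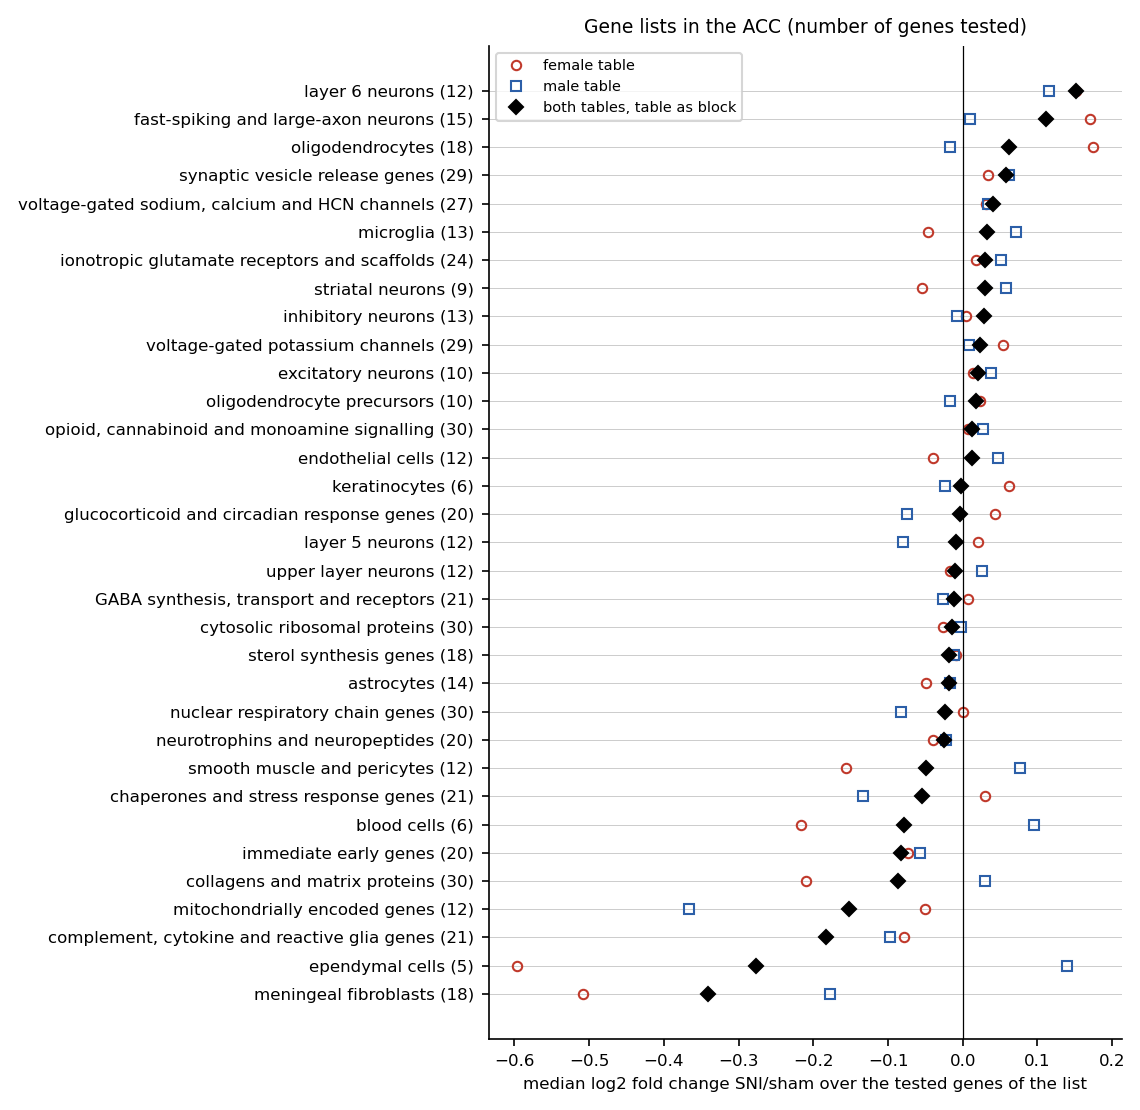
Median log2 fold change of SNI over sham across the tested genes of each list, in the female table (open circles), in the male table (open squares) and in both with the table as block (filled diamonds); the number of genes tested is in parentheses. The choroid plexus and hepatocyte lists, which 1 or 2 libraries decide, and the genes the study named are not drawn. Of the lists drawn, layer 6 neurons had the highest common median (0.15) and meningeal fibroblasts the lowest (-0.34), and for many lists the female and male medians lay on opposite sides of 0.

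Genes of the brain's coverings were on the lower side. All 18 meningeal fibroblast markers were lower after SNI in the common fit and in each table, with a median of -0.34 in common, -0.51 in females and -0.18 in males. Of these 18, 10 were nominal and lower, against 2.92% of all genes. The list holds Col1a1, Col3a1 and Dcn, which the study had named from these samples, so the count is not independent of these data. Dcn, the collagen-binding proteoglycan decorin, was at 9.76 to 12.35 CPM in sham females and 6.55 to 8.54 CPM in SNI females. In males Dcn was at 6.21 to 10.4 CPM in sham and 5.79 to 8.73 CPM after SNI, and the common difference was -0.45 ± 0.13 (SE, edgeR adjusted p = 0.814). Col3a1 differed by -0.59, Col1a2 by -0.34 and Col1a1 by -0.33, all 3 genes of fibrillar collagens. Ogn, the proteoglycan osteoglycin, had nearly equal values in females (-0.49) and males (-0.45). The summed level of the list was 332.3 to 500.1 CPM in sham females and 290.0 to 299.0 CPM in SNI females. In males it was 275.3 to 416.8 CPM in sham and 267.1 to 383.3 CPM after SNI. Groups were thus apart in females and overlapped in males, and no gene of the list was separated in both tables.

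The library with choroid plexus RNA, female sham 1, also held the highest meningeal sum. Without it the meningeal median was -0.24, the value nearest to 0 with any library left out, and 5 genes were nominal. The count of nominal meningeal genes moved with other libraries too: it was 5 without female SNI 2, 6 without female SNI 1, female SNI 3, male sham 3 or male SNI 1, and 15 without male sham 2, where the median was -0.45. All 18 genes were lower with each library left out. The choroid plexus list rests on female sham 1: 10 of 10 genes tested were lower with a median of -2.14, and 9 were nominal. Without female sham 1 the median was -0.21 and 0 were nominal. Ttr, the thyroid hormone carrier of the choroid plexus, was at 867 CPM in that library and at 0.272 to 5.64 CPM in the other 11, and Kl, Clic6 and Aqp1 differed by -1.68, -3.57 and -2.57. The part of choroid plexus RNA in the other female differences was not tested. The summed markers by library show the single high point.

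**Figure D4:**
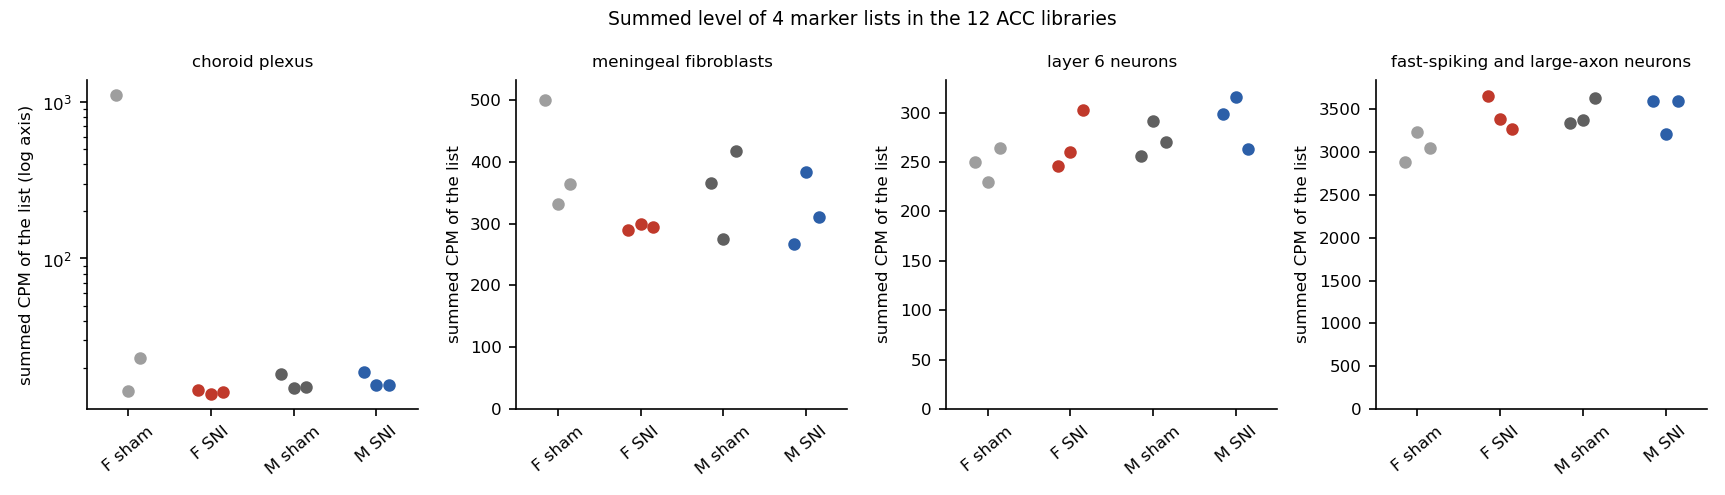
Summed TMM-scaled CPM of 4 marker lists in the 12 ACC libraries, as points by group (F, female; M, male); the first panel has a log axis and the others start at 0. Choroid plexus markers reach 1109 CPM in 1 sham female library and 13.6 to 23.2 CPM elsewhere, the meningeal sums of SNI females (290.0 to 299.0 CPM) lie below those of sham females (332.3 to 500.1 CPM), and the groups overlap for layer 6 neurons.

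Complement, cytokine and reactive glia genes were mostly on the lower side: of 21 tested, 15 were lower with a median of -0.18. Of the 21, 8 were nominal, all lower, against 2.92% of all genes. Gfap, the intermediate filament of reactive astrocytes, differed by -0.24 ± 0.08, from 106 to 142 CPM in sham and 84.7 to 124 CPM after SNI, and is named after its values were seen. C1qa, C1qb and C1qc, the complement subunits made by microglia, lay between -0.05 and 0.03, and C3, the central complement protein, was at 1.02 ± 0.73, with 5.33 CPM in male SNI 1 and 0.148 to 1.09 CPM in the other libraries. With a library left out the median of the list was -0.22 to -0.13, and the nominal genes numbered 5 without female sham 1, female sham 3, female SNI 2, male sham 3 or male SNI 1. Of 30 collagens and matrix proteins, 22 were lower with a median of -0.09, and 5 were nominal, all lower, against 2.92% of all genes. Col1a1, Col3a1 and Dcn, which the study had named from these samples, are among the 30. The medians were -0.21 in females and 0.03 in males. The collagen median was -0.03 with 3 nominal genes without female sham 1, and -0.04 with 3 without male sham 3, while it was -0.18 with 11 without male SNI 2 and -0.14 with 9 without male sham 2. Col4a1, a basement membrane collagen and not a product of fibroblasts alone, was at 0.02.

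Markers of the other cell types of the punch had medians near 0. Among 14 astrocyte markers the median was -0.02, with Aqp4 at -0.10, Aldh1l1 at 0.00 and Slc1a2 at 0.01, and Gfap and Slc7a11 were the 2 nominal genes. The median was 0.03 for 13 microglial markers, 0.01 for 12 endothelial markers and 0.02 for 10 oligodendrocyte precursor markers, with 0 nominal genes in each. Cx3cr1, P2ry12, Tmem119 and Csf1r, receptors and surface proteins of microglia, lay between -0.02 and 0.06. Cldn5, Pecam1, Flt1 and Kdr of the endothelium lay between -0.02 and 0.04. Pdgfra, Cspg4, Cspg5 and Gpr17 of the precursors lay between -0.06 and 0.05. The sign of the microglial, endothelial and precursor medians turned with single libraries left out, such as male sham 1 for the first 2 of these lists and female SNI 3 for the precursors. The 12 markers of smooth muscle and pericytes had a median of -0.05, at -0.16 in females and 0.08 in males, with Acta2, Tagln, Myh11 and Myl9, contractile proteins, between -0.24 and -0.04, and their median was 0.0063 without male sham 3. Of 18 oligodendrocyte genes 14 were higher with a median of 0.06 and 0 nominal, and the female and male medians were 0.17 and -0.02. Without female sham 1 the oligodendrocyte median was 0.0021 with 9 genes higher and 9 lower, and with other libraries left out it was 0.01 to 0.12. Mbp, Mog and Mag, proteins of myelin, lay between 0.06 and 0.12 in common.

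The other neuronal lists, apart from layer 6 and fast-spiking neurons, were as close to 0, with medians of 0.02 for 10 excitatory, -0.01 for 12 upper layer, -0.01 for 12 layer 5, 0.03 for 13 inhibitory and 0.03 for 9 striatal neuron genes. In the excitatory list Slc17a7 (0.08), Camk2a (0.04), Neurod6 (-0.07) and Neurod2 (0.12) had values of either sign. Cux2, Cux1, Rasgrf2 and Lamp5 of the upper layers lay between -0.04 and 0.06, and Fezf2, Bcl11b, Etv1 and Parm1 of layer 5 between -0.13 and 0.05. Pvalb was at 0.05 and Gad1 at 0.03, while Ppp1r1b, Adora2a and Drd2, abundant in striatum, lay at 0.17, -0.07 and 0.15. Ependymal (5 genes tested, median -0.28, with Foxj1 at -0.16, Rsph1 at -0.02, Dnah6 at -1.21 and Cfap126 at -0.37), blood (6 genes, -0.08, with Hba-a1, Hba-a2, Hbb-bs and Hbb-bt between -0.14 and -0.02) and keratinocyte lists (6 genes, -0.0021, with Krt10, Krt1, Dsp and Sfn between -0.64 and 0.05) had few genes tested. Without female sham 1 the ependymal median was 0.02. Of the 10 hepatocyte genes 4 were tested, with Alb at 1.44, Apoa1 at 0.88, Ahsg at 0.55 and Ttr at -6.23, and their median of 0.72 became -6.67 without male SNI 1.

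Genes that answer to neuronal activity, stress hormones and pain-related transmitters were close to 0 as well. Of 20 immediate early genes 16 were lower with a median of -0.08, and 1 was nominal, which was Egr2 (-0.24). Without the 3 libraries of steep GC trend the median was -0.0044 with 10 genes higher and 10 lower, and without male sham 3 it was -0.04 with 8 higher and 12 lower. Fos, Fosb, Fosl2 and Jun, subunits of AP-1, lay between -0.11 and 0.04. The 20 glucocorticoid and circadian genes had a median of -0.0036, with Fkbp5, Sgk1, Tsc22d3 and Per1 between -0.03 and 0.03. Across 30 genes of opioid, cannabinoid and monoamine signalling the median was 0.01, and the opioid receptor genes Oprm1, Oprd1, Oprk1 and Oprl1 lay between -0.09 and 0.08. Of 20 neurotrophin and neuropeptide genes 14 were lower with a median of -0.02. Bdnf was at -0.13, its receptor Ntrk2 at -0.02, Ntf3 at -0.50 and Ntrk3 at -0.04, none of them nominal. The 18 sterol synthesis genes had a median of -0.02, with Hmgcs1 at -0.04 and Sqle at -0.06.

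Genes of energy metabolism and protein synthesis lay slightly on the lower side over the 12 libraries, and the values moved with the male libraries left out. Of the 12 mitochondrially encoded genes tested, 11 were lower with a median of -0.15, at -0.05 in females and -0.37 in males. Of the 12, 4 were nominal, all lower, against 2.92% of all genes. mt-Nd3, a subunit of complex I, was at 208.5 to 274.8 CPM in the females, with overlap between the groups. In males mt-Nd3 was at 220.4, 220.9 and 166 CPM in sham and 122, 136 and 169 CPM after SNI, and it differed by -0.32 in common. mt-Nd2, mt-Nd4 and mt-Nd4l were at -0.15, -0.11 and -0.35. With each library corrected for GC content, the median of the list was -0.06 and 2 genes were nominal. Without male sham 1 the median was -0.08 with 1 nominal gene, without male SNI 1 it was -0.0952, and without male SNI 2 1 gene was nominal. The share of counts on these genes was 1.44% to 1.73% in male sham 3 and the 3 male SNI libraries and 1.79% to 2.05% in the other 8. Nuclear respiratory chain genes had a median of -0.02 over 30 genes, 9 higher and 21 lower, which became 21 higher and 9 lower with a median of 0.01 without the 3 libraries of steep GC trend. Ndufa1, Ndufa2, Ndufa4 and Ndufa5 lay between -0.19 and -0.02. Of 30 cytosolic ribosomal protein genes 23 were lower with a median of -0.0150, with Rpl3, Rpl4, Rpl5 and Rpl7 between -0.16 and 0.01. Without male sham 3, 17 ribosomal genes were higher and 13 lower, and without the 3 libraries of steep GC trend 14 were higher and 16 lower. Among 21 chaperone and stress response genes 18 were lower with a median of -0.05, at 0.03 in females and -0.13 in males, and Hspa1a, Hspa1b, Hspa5 and Hspa8, heat shock proteins of the HSP70 family, lay between -0.13 and -0.02. The chaperone median was -0.0069 with 9 genes higher and 12 lower without the 3 libraries of steep GC trend, and -0.03 without male sham 1, male sham 3, male SNI 1 or male SNI 3. The part of GC content in these differences was not tested beyond the correction and these values.

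Tested table by table in a model with 4 groups, the SNI effect gave 0 called genes in females, or 0%, with 716 nominal genes, and 4 in males, or 0.0231%, with 1671 nominal genes. The study's own edgeR fits had given more genes in each sex at the same FDR, and more in females than in males. The reason for this gap was not tested. The male count of 4 rests on single libraries: it was 3752 without male sham 3, 9 without male SNI 3, and 2 without male sham 1 or without male SNI 1. The test of the difference between the tables called 0 genes, or 0%, with 1024 nominal genes and a smallest FDR of 0.119, and 1698 without male sham 3. The male calls were an entry of Gcat (ENSMUSG00000116378, -4.53, edgeR adjusted p = 0.00534), Gm16867 (-0.57, adjusted p = 0.0140), Gm27177 (3.81, adjusted p = 0.0434) and the pseudogene Gm29216 (-0.38, adjusted p = 0.0648). Gcat, which cleaves amino-ketobutyrate in threonine breakdown, has 2 overlapping entries on the same strand. The called entry was at 2.47 to 3.12 CPM in sham males and 0 to 0.229 CPM in SNI males, while the other entry (ENSMUSG00000006378) was at 6.21 to 7.47 and 9.25 to 10.1 CPM in the same libraries. How the reads were split between these entries is uncertain. In females the called entry was at 1.57 to 2.42 CPM in sham and 1.26 to 2.87 CPM after SNI, and its male minus female difference was -4.39 ± 0.64 with an adjusted interaction p of 0.119. The next smallest interaction p values were those of Gm10297, scarce in all libraries, and Gm10925, an unprocessed pseudogene at 1730 to 2839 CPM, which differed by 0.13 in females and -0.40 in males.

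The genes that the study had named for the ACC were chosen on these samples, so their values here are not independent evidence of a direction. For Scn4b, Syt2, Acta2, Col1a1, Gm27177, Gm5641 and Gcat the study also ran qPCR on separate RNA samples of single mice. It reported that the qPCR bore out its RNA-seq findings. Of the 13 entries in the list taken for these genes, 7 were higher and 6 lower in the common fit, and 9 were nominal. The list holds Gm6565, which the main text of the study does not name, and lacks Gm26723, which it does. Gm26723 differed by -9.02 in the common fit. It had 346 reads in female sham 3, 15 in female sham 2, 19 in male sham 3 and 0 elsewhere. Gm27177, an antisense gene that overlaps Entpd4b and Loxl2, was at 1.59 to 3.34 CPM in sham females and 2.27 to 5.93 CPM in SNI females. In males Gm27177 was at 0 to 0.590 CPM in sham and 3.09 to 6.54 CPM after SNI, and the common difference was 1.93 ± 0.47 (SE, edgeR adjusted p = 0.814). Gm27177 had the smallest p of these genes. It lies on chromosome 14, as does Gm16867, which overlaps Entpd4. Gm5641 was at 13.1 to 15.1 CPM in sham females and 7.06 to 9.43 CPM in SNI females, but in males at 12.1, 11.1 and 0 CPM in sham and at or under 0.114 CPM after SNI. Male sham 3 was thus without reads of Gm5641, as were 2 of the male SNI libraries. Tmem267, a membrane protein, differed by 0.28, Acta2 by -0.24 and Gm6565 by 1.24. Gm6565 was at 0 CPM in all sham females and 1.97 to 3.25 CPM in SNI females. Its male levels are not reported here, so its common value cannot be read as a gain in both tables.

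Leaving out any of the 12 libraries left the count of called genes at 0. The count of nominal genes ranged from 656 without male SNI 1 to 2200 without male sham 3, and it was 1281 without male SNI 3. The smallest FDR was 0.302 without male sham 3 and 0.120 without male SNI 3. Without the 3 male libraries of steep GC trend it was 1226 genes, with 0 called. The male sham group holds 1 library of steep trend and the male SNI group 2, and what part the trend has in the counts was not tested beyond these values.

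**Figure D5:**
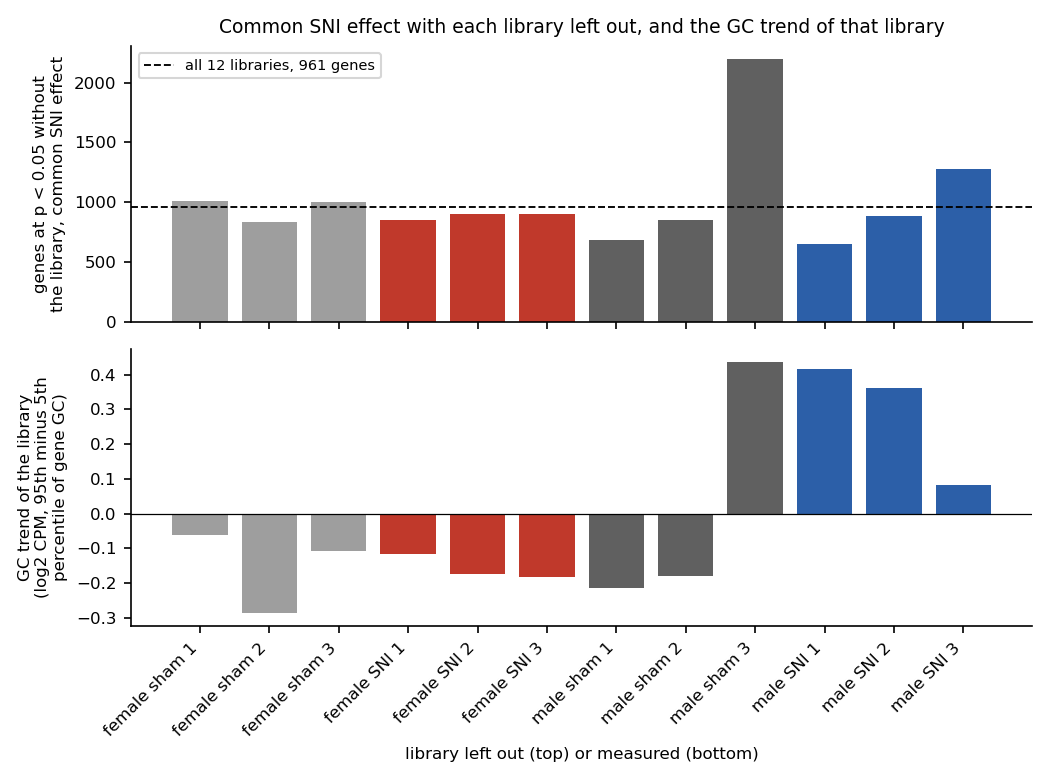
Number of genes at an unadjusted p under 0.05 for the common SNI effect when the library on the horizontal axis is left out (top, dashed line for all 12 libraries), and the GC trend of that library on the log2 scale (bottom). The count is highest, at 2200, without male sham 3, whose trend is the steepest at 0.437, and lies between 656 and 1281 without any other library.

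In the medial prefrontal cortex, fitted the same way over its own 12 libraries, 0 of 17641 genes were called. Of the 81 genes separated in the ACC, 29 had the same sign there, 7 were nominal and 2 of those 7 had the same sign. The shares of all genes with the same sign or nominal in that region are not given here. These counts therefore cannot show a reversal between the regions. Rimkla was at -0.10 ± 0.07 (SE) in the prefrontal fit against 0.28 in the ACC. Syt6 was at -0.28 ± 0.10 against 0.41 and Cdo1 at 0.04 ± 0.05 against -0.24. Other genes kept their sign, such as Gfap at -0.28 ± 0.09 against -0.24 and Ephb2 at 0.09 ± 0.08 against 0.15. The difference between the regions was not tested.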

How the data were processed

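RNA-seq was done on punches of mouse ACC and medial prefrontal cortex. The authors deposited 4 tables of counts, whole numbers of reads per gene without normalization, 1 for each sex and region, and 0 columns lacked a sample. The submitters' processing notes name Trimmomatic 0.36, Bowtie2, HISAT2 2.1.0, HTSeq 0.9.1, edgeR 3.34.0 and build GRCm38. The annotation release and the strand setting of the counting are not given in the sources used here. Symbols, positions and GC content were taken from GENCODE M21 (GRCm38).

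The 12 ACC libraries were analysed in R 4.3.3 with edgeR 4.0.16. Genes were kept by filterByExpr over the 4 groups (count 10, total 15), scaled by TMM, and tested with the legacy quasi-likelihood F-test for treatment with the table as block. Genes were called at a Benjamini-Hochberg FDR under 0.1. A model of the 4 groups gave the effect in each table and their difference. All tests are two-sided. The model was tested on simulated data. Alternatives used DESeq2 1.42.0, other filters, scalings, blocks, a GC correction (lowess span 0.3) and each library left out. The named genes were the 10 with the smallest p in each direction among those whose 3 SNI libraries lay on 1 side of the 3 sham libraries in both tables, the first 4 tested of each list, the genes the study named and the 3 with the smallest interaction p. Some genes that this rule names are not reported here. The members and the 36 lists were chosen with earlier results of these data known. Replicates of a group differed by more than counting noise. Precision is given by the total counts and the standard errors, and 3 counts of a library come to 0.0994 to 0.121 CPM. The edgeR standard errors were derived as the size of the log2 fold change over the square root of the F statistic. Each library is a pool, and p-values measure the spread between these pools.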

Additional observations from a re-analysis of the deposited data

How the results depend on the processing

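Under 25 alternatives for the common SNI effect the count of called genes was 0 except in 4: 40 without the low-count filter (17 higher, 23 lower, the choroid plexus and Mup genes of single libraries among them), 8 with the likelihood ratio test, 3 as the mean of the within-table contrasts and 2 with the GC correction and the replicate block. The replicate block alone gave 0 called genes and 652 nominal genes. Replicate numbers did not pair the libraries, since the deviations of same-numbered libraries correlated at -0.121 to 0.0329. In the female ACC, 0 called genes became 4 with its own 6 libraries, 5 with DESeq2, 121 without the filter and 1 with the replicate block. In the male ACC, 4 became 1 with its own libraries, 18 with DESeq2, 261 without the filter, 2 with the replicate block and 2 to 3752 with a library left out, the highest without male sham 3 and 9 without male SNI 3. The interaction gave 2 with DESeq2, 110 without the filter, 1 with the GC correction (chosen after seeing the data) and 0 to 1698 with a library left out, the highest without male sham 3. The cause of these shifts was not tested. The 20 leading genes kept their sign under all alternatives run, but they were picked for separation in both tables, which largely fixes the sign. The hepatocyte median turned from 0.72 to -6.67 without male SNI 1. Genes under 1 CPM had a median standard error of 0.28, against 0.05 over 10 CPM, and in the main fit no gene was called at either level. Hepatocyte genes gave no value at 10 counts in every library.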
